A study of Mus musculus with 12 samples.

Results

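Muc1, Emp1, Mpzl2 and Slc6a12 are 4 genes of membrane proteins best known from epithelia. They were chosen by their measured log2 intensities, for being far higher in activated CD4+ T cells left untreated for 2 h than in the baseline sample, so that difference is a description and not a finding. Each is represented by 1 probe set, and together they are 4 of 19752 genes measured. All samples were splenic CD4+ T cells of male C57BL/6 mice aged 6 weeks, enriched by removing other cells and stimulated over 48 h on beads carrying anti-CD3/CD28. Of the 12 samples, 4 had IL-12 at 100 U/ml for 8 h, 5 had IL-12 at 100 U/ml for 2 h, 2 were untreated for 2 h (a time given by their titles alone), and 1 is labelled baseline, with no cytokine and no culture time. RNA was hybridised to Affymetrix Mouse Gene 1.0 ST arrays, 1 per sample, and every value below is a log2 intensity or a difference of log2 intensities.

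Muc1 encodes a transmembrane mucin, a protein with a long ectodomain dense in O-linked sugars that lines the surface of glandular epithelia; in humans it is also known from activated T cells. Emp1 encodes epithelial membrane protein 1, a protein with 4 membrane-spanning stretches related to peripheral myelin protein 22. Mpzl2, also called epithelial V-like antigen, encodes an adhesion protein with an immunoglobulin-type domain, known from thymic epithelium. Slc6a12 encodes the betaine and GABA transporter BGT1, which brings osmolytes into kidney cells under hypertonic stress, where NFAT5 switches the gene on.

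The promoters of these genes are shown because the genes share the order of untreated over baseline, so that the letters at their starts can be set side by side. RefSeq windows on build GRCm38.p6, from 250 bases before to 50 after the start, were available here for 3 of the 4 genes, all on the plus strand, and Mpzl2 has none here. Where RefSeq gives several starts (2 windows for Emp1 and 5 for Slc6a12) the most upstream one is printed. Capitals mark matches, on either strand, to TGANTCA (AP-1), TTCNNNGAA (STAT) and GGGCGG (GC box).
Muc1, chr3:89228806-89229105: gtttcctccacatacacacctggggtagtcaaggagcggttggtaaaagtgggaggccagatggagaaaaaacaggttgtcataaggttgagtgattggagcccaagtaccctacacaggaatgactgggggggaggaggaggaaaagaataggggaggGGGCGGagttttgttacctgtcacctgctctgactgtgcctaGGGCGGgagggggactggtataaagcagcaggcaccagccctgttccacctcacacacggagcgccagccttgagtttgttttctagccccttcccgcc
Emp1, chr6:135362681-135362980: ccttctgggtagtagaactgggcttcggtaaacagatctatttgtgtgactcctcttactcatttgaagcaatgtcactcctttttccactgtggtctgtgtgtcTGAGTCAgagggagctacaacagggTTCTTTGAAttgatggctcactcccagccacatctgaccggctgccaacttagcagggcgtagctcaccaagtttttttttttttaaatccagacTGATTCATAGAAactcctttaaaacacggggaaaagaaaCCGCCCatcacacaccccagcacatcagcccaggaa
Slc6a12, chr6:121342324-121342623: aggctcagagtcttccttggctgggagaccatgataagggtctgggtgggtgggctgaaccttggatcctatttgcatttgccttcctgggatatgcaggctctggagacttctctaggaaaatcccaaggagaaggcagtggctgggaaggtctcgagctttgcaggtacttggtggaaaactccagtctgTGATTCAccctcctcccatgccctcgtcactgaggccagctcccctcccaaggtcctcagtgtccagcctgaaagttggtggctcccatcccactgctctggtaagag
The Muc1 window held 2 GC boxes, which begin 91 and 49 bases before the start, and 0 matches to the AP-1 or STAT letters. The Emp1 window held 2 AP-1 matches, beginning at 145 and 25 bases before the start, and 2 STAT matches, beginning at 120 and 22 bases before it, plus 1 GC box after it. The second AP-1 match and the second STAT match of Emp1 overlap. In the Slc6a12 window 1 AP-1 match began 58 bases before the start. The other windows of Emp1 and Slc6a12 held 0 AP-1 and 0 STAT matches. Of 32851 promoter windows of that length, 7.81% held the AP-1 letters, 8.3% the STAT letters and 35.7% the GC box. GGAAA, the core of NFAT and NFAT5 sites, was present 2 times in each of the 3 windows and in 61.3% of all windows. NF-kappaB letters (GGG and CC with 5 free bases between them) matched 3 times in the Slc6a12 window and 0 times in the other two, and 50.8% of all windows hold them. The CRE core TGACG matched 1 time, in Slc6a12 (20.8% of windows). NR4A letters (AAGGTCA) and EGR letters (GCGTGGG) matched 0 times in these 3 windows, and 4.72% and 5.04% of all windows hold them. Every motif was searched on both strands, and a match is a run of letters rather than a shown binding site.

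Sample titles carry numbers whose meaning the labels do not give. IL-12 samples are numbered 2 to 4 (2 at 8 h and 3 at 2 h) or 5 to 6 (2 at each time), the untreated samples 7 and 8 and the baseline sample 5. Among the IL-12 arrays, numbers 2 to 4 and 5 to 6 stood apart: 24.3% of genes differed between them at a Benjamini-Hochberg adjusted p under 0.05 in limma. The untreated and baseline arrays were placed in a run 5 to 8 by number alone, and that placing was not tested. The baseline array, numbered 5, correlated more closely with arrays 2 to 4 (median r across genes 0.993) than with arrays 5 to 8 (0.989), and r was 0.998 between arrays of the same group and run. Results are therefore given within each run as well. Whether replicate samples are separate mice or cultures is not in the labels, so each p-value refers to spread among these samples that may be only technical. In bulk RNA, fewer cells that express a gene and less of its RNA per cell cannot be told apart.

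Muc1 had log2 intensities of 7.86, 7.89, 8.28 and 8.65 after 8 h of IL-12 (numbers 2, 3, 5 and 6). After 2 h of IL-12 it had 9.12, 9.10, 8.82, 10.20 and 9.99 (numbers 2 to 6). The untreated arrays gave 10.10 and 9.98, and the baseline array gave 6.52. Muc1 was thus high in all 7 arrays taken at 2 h, with or without IL-12, lower in every 8 h array and lowest at baseline. Within the IL-12 2 h group, the arrays numbered 5 and 6 lay with the untreated ones and those numbered 2 to 4 lay about 1 log2 unit below.

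Emp1 had 8.66, 8.78, 10.09 and 9.62 after 8 h of IL-12. It had 10.34, 10.25, 10.34, 10.90 and 10.83 after 2 h of IL-12. The untreated arrays gave 10.81 and 10.77 and the baseline array 7.68. The order of groups was that of Muc1, and the highest 8 h array lay just under the lowest 2 h array.

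Mpzl2 had 6.80, 6.96, 7.99 and 7.87 after 8 h of IL-12. It had 8.67, 8.56, 8.51, 9.56 and 9.65 after 2 h of IL-12, against 9.43 and 9.29 in the untreated arrays and 6.82 at baseline. The 8 h arrays numbered 2 and 3 bracketed the baseline value, whereas for Muc1 and Emp1 every 8 h array stayed above it.

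Slc6a12 had 6.70, 6.45, 7.71 and 8.03 after 8 h of IL-12. It had 6.40, 6.81, 6.71, 8.94 and 8.99 after 2 h of IL-12, against 9.16 and 9.11 in the untreated arrays and 6.59 at baseline. Here the number run parted the arrays more than the time did. All 5 IL-12 arrays numbered 2 to 4 lay between 6.40 and 6.81, at both times, and the baseline array lay inside that range. These values were below the array medians, taken here and below over all probe sets (7.33 to 7.39), as were the baseline values of Muc1 and Mpzl2. The table gives no detection call, so whether such low values were above background is not known, and a difference from them may be only a lower bound.

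**Figure D1:**
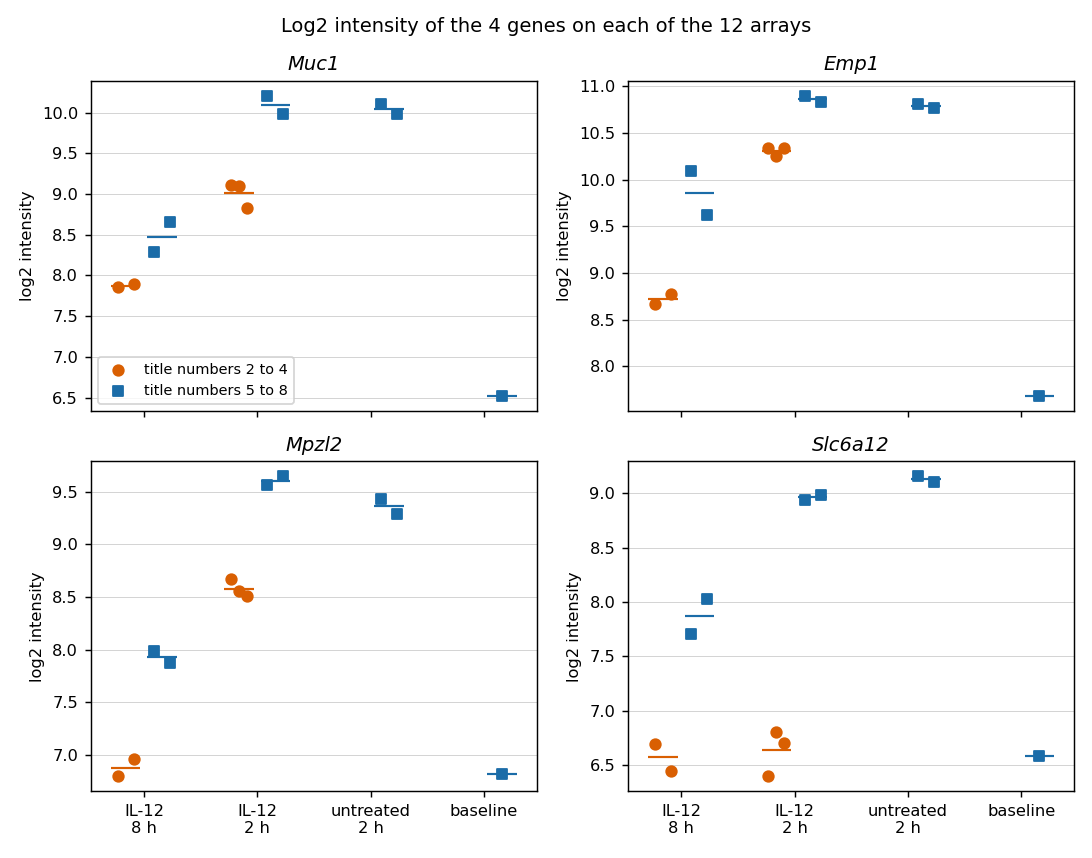
Log2 intensity of Muc1, Emp1, Mpzl2 and Slc6a12 (1 panel each) on the 12 arrays, by group along the x axis. Circles are arrays numbered 2 to 4, squares arrays numbered 5 to 8, and short lines the mean of each group and run. For Muc1, Emp1 and Mpzl2 every IL-12 8 h array lies below every IL-12 2 h array, while Slc6a12 splits by number, with all circles between 6.40 and 6.81.

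As a description of how they were chosen, the untreated mean exceeded the baseline array by a log2 of 3.52 for Muc1, 3.11 for Emp1, 2.55 for Slc6a12 and 2.54 for Mpzl2. Among all genes these differences ranked 1, 2, 5 and 6, with the low baseline values as the limit given above. The rule names no threshold. Between and just after them came Il2, the T cell growth factor gene, at 3.06, the B cell help gene Cd40lg at 2.60, Pdgfb at 2.47, the orphan nuclear receptor gene Nr4a1 at 2.46, Rgs16 at 2.37 and Egr3 at 2.30. Single genes known from other cells moved in the same contrast: the myeloid genes Clec4e and Lyz2 ranked 15 and 19, at 2.17 and 2.13. The mean of 14 macrophage and monocyte markers, Lyz2 among them, moved far less. It was 6.43 at baseline and 6.56 to 6.67 in untreated arrays. Single platelet and B cell genes went the other way, with Ppbp at 7.15 in untreated arrays and 10.02 at baseline, Pf4 at 7.64 and 9.60, and Ms4a1 at 6.72 and 8.16. The mean of 9 B cell markers was 7.32 at baseline and 6.87 to 6.91 untreated. That of 5 erythroid and platelet markers was 8.48 at baseline and 7.16 to 7.39 untreated. The part of such cells in the contrast was not tested. The baseline array correlated slightly more closely with arrays 2 to 4 than with arrays 5 to 8, sets that differ in their groups. Which run it belongs to is not known. With the baseline put into the run 2 to 4 the fitted differences were 2.66 for Muc1, 2.29 for Emp1, 1.501 for Mpzl2 and 0.69 for Slc6a12. Time in culture and number run cannot be told apart in this contrast of 2 arrays with 1.

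The comparison of IL-12 8 h with IL-12 2 h takes its difference from none of the arrays on which the genes were chosen, although these share in its estimate of the spread, and it asks how their RNA changed between the early and the late time under the cytokine. Muc1 fell 2.57-fold (log2 -1.36 ± 0.11 SE, limma adjusted p = 2.53e-06, n = 4 against 5). Emp1 fell 2.51-fold (log2 -1.33 ± 0.11, limma adjusted p = 4.35e-06). Mpzl2 fell 3.22-fold (log2 -1.69 ± 0.06, limma adjusted p = 4.59e-09), and among all 19752 genes only 4 fell further. Slc6a12 was 1.45-fold lower (log2 -0.53 ± 0.16, limma adjusted p = 0.0486). Thus 4 of 4 were called lower, where 6.36% of all genes were, and 0 of 4 higher, where 6.27% were. In 3 of the 4, every 8 h array lay below every 2 h array, as in 4.23% of all genes. The 4 genes were chosen with earlier results of these data known, so these counts are no independent evidence. With the IL-12 arrays alone in the fit, 3 of 4 were called and Slc6a12 was not (limma adjusted p = 0.0583). For Slc6a12 the groups overlapped, and the call was lost in 9 of 11 other settings and on leaving out 7 of the 9 IL-12 arrays singly, among them the fit with the title number as a replicate block (log2 -0.56, limma adjusted p = 0.151) and without IL-12 8 h array 5 (-0.38, limma adjusted p = 0.136).

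Within each run the first 3 genes fell alike in direction. In arrays numbered 5 and 6, 8 h minus 2 h was -1.63 ± 0.13 for Muc1, -1.01 ± 0.12 for Emp1 and -1.67 ± 0.09 for Mpzl2 (log2 ± SE). In arrays numbered 2 to 4 it was -1.14 ± 0.12 for Muc1, -1.59 ± 0.11 for Emp1 and -1.70 ± 0.08 for Mpzl2. The last may be only a lower bound in size, as both 8 h values of Mpzl2 there lay below the array medians. Slc6a12 had -1.09 ± 0.14 in arrays 5 and 6 and -0.07 ± 0.13 in arrays 2 to 4. This difference between the runs, arrays 5 and 6 minus arrays 2 to 4, was tested as an interaction in the 9 IL-12 arrays. It was -1.03 ± 0.19 for Slc6a12 (limma adjusted p = 0.0151), so that 1 of 4 genes passed, where 1.96% of all genes did. In arrays 2 to 4 Slc6a12 was already at 6.40 to 6.81 at 2 h, level with the baseline array, and whether a further fall could have been measured there was not tested, so the interaction does not show a different response. The interaction was -0.49 ± 0.18 for Muc1 (limma adjusted p = 0.207), 0.58 ± 0.17 for Emp1 (limma adjusted p = 0.114) and 0.03 ± 0.12 for Mpzl2 (limma adjusted p = 0.953), none of which passed. That of Mpzl2 shares the limit of its low 8 h values in arrays 2 to 4. The Slc6a12 interaction missed the threshold without IL-12 8 h array 2 (-0.90, limma adjusted p = 0.0821) and without IL-12 2 h array 6 (-1.002, limma adjusted p = 0.0571), and that of Emp1 passed without IL-12 8 h array 6 (0.81, limma adjusted p = 0.0116).

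**Figure D2:**
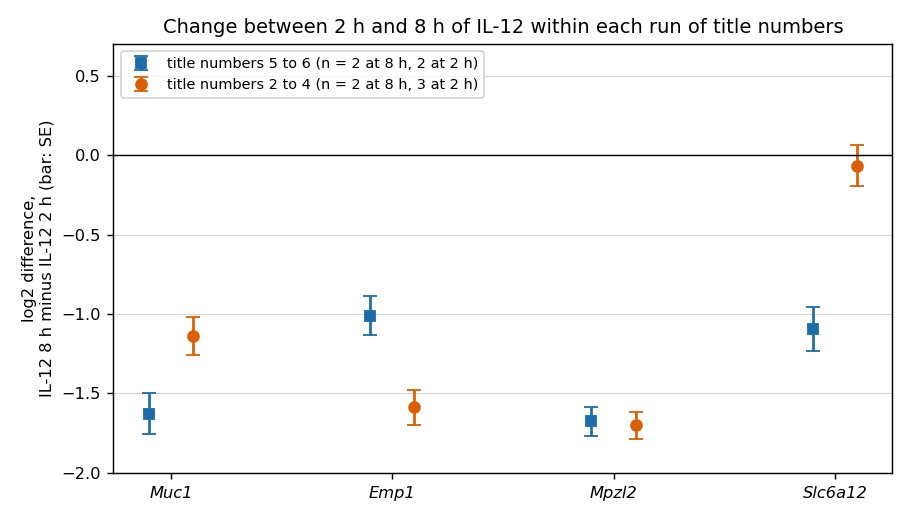
Log2 difference IL-12 8 h minus IL-12 2 h for each gene, in arrays numbered 5 to 6 (squares) and 2 to 4 (circles), with SE from the fit to the 9 IL-12 arrays. Mpzl2 gives -1.67 in arrays 5 and 6 and -1.70 in arrays 2 to 4, while Slc6a12 gives -1.09 in arrays 5 and 6 and -0.07 in arrays 2 to 4. In arrays 2 to 4 the 8 h values of Mpzl2 and all values of Slc6a12 lay below the array medians.

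The number run itself moved all 4 genes. Over both IL-12 times, arrays numbered 2 to 4 were below those numbered 5 and 6 by a log2 of -1.86 ± 0.16 for Slc6a12 (limma adjusted p = 5.28e-06) and -1.04 ± 0.06 for Mpzl2 (limma adjusted p = 3.39e-07). The difference was -0.86 ± 0.11 for Muc1 (limma adjusted p = 7.7e-05) and -0.82 ± 0.11 for Emp1 (limma adjusted p = 0.000142). Thus 4 of 4 were called lower, against 12.5% of all genes, and in all 4 every array numbered 2 to 4 lay below every array numbered 5 or 6 at the same time, as in 12.9% of genes. The untreated arrays used to choose the genes were placed in the run 5 to 8, and the baseline array correlated slightly more closely with the run 2 to 4. The choice may thus have favoured genes lower in the run 2 to 4, so these counts are no independent evidence. Slc6a12 differed by a log2 of -2.32 ± 0.13 between arrays 2 to 4 and arrays 5 and 6 at 2 h of IL-12, and by -1.30 ± 0.14 at 8 h, sizes that may be lower bounds given its low values in arrays 2 to 4. Only 5 genes of 19752 had a more negative run difference than Slc6a12. Called lower both at 8 h and in the run 2 to 4 were 2.7% of all genes, and the 4 genes are among them.

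Some markers of macrophages and monocytes differed by run. Over 14 measured markers the mean log2 intensity was 6.33 in both 8 h arrays and 6.36 to 6.38 in the 2 h IL-12 arrays of the run 2 to 4. It was 6.50 to 6.56 at 8 h and 6.49 to 6.59 at 2 h in the IL-12 arrays numbered 5 and 6, 6.56 to 6.67 in the untreated arrays and 6.43 at baseline. Of the 14 markers 2 were higher and 5 lower in the run 2 to 4, where 11.8% of all genes were higher and 12.5% lower, and the median marker difference was -0.02 (all genes 0.04). Of the 14, 12 were below the array median on all 12 arrays. The lysozyme gene Lyz2, whose intensities spanned 6.66 to 9.93, differed by -1.96 (limma adjusted p = 5.28e-06), and Cd68 by -0.83 (limma adjusted p = 3.14e-06). Itgam (-0.32), Mpeg1 (-0.38) and Csf1r (-0.26) were lower too, while Ccr2 (0.58) and Marco (0.22) were higher. The defining macrophage genes Adgre1 (5.14 to 5.36), Csf1r (6.14 to 6.70) and C1qa (6.42 to 6.76) were below the array medians throughout. With this mean as a covariate, the run differences of Muc1, Emp1, Mpzl2 and Slc6a12 were -1.16, -0.52, -0.79 and -2.18. They missed the threshold (limma adjusted p = 0.139, 0.502, 0.0656 and 0.0739), as did nearly all genes, with 40 called in place of 4795. On the IL-12 arrays the mean followed the run without overlap, so covariate and run cannot be told apart in that fit. The lost calls therefore do not show a part of such cells. The 8 h falls of Muc1, Emp1 and Mpzl2 stayed called with the covariate (limma adjusted p = 1.03e-05, 3.02e-05 and 3.62e-08). Within a run the mean differed little between 2 h and 8 h, so this fit could hardly have changed those falls. Markers of other cells differed by run too: 5 of 9 B cell markers were higher and 0 lower in the run 2 to 4, 2 of 7 NK cell markers were higher and 4 lower, and of 2 CD8 T cell markers Cd8b1 was lower (-0.51). Of 5 erythroid and platelet markers 2 were higher, the platelet chemokine genes Ppbp (1.69) and Pf4 (1.07), and 0 lower. Of 9 neutrophil markers 2 were higher, Ly6g (0.74) and S100a8 (0.30), and 1 lower, Mpo (-1.17). Of 8 dendritic cell markers 2 were higher, Batf3 (0.36) and Xcr1 (0.26), and 1 lower, Itgax (-0.67). Of 13 stromal and endothelial markers 1 was higher, Cdh5 (0.20), and 1 lower, Pecam1 (-0.31). The part of such cells in the run differences was not tested.

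**Figure D3:**
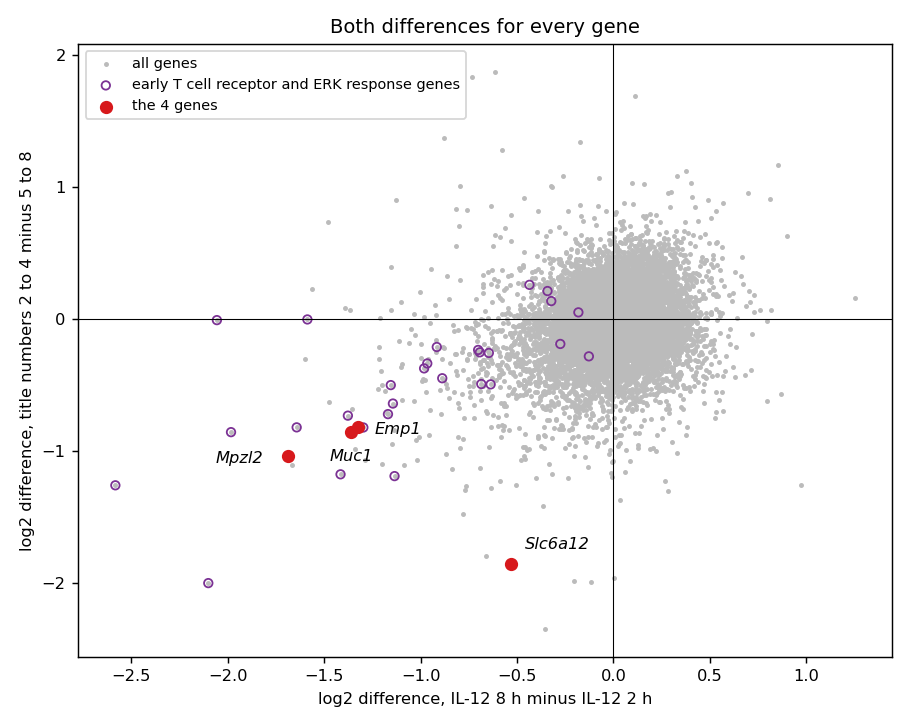
For every gene, the log2 difference IL-12 8 h minus IL-12 2 h (x axis) and title numbers 2 to 4 minus 5 to 8 (y axis). Only IL-12 arrays determine the y difference. Muc1, Emp1 and Mpzl2 (filled red) lie at -1.36, -1.33 and -1.69 on x among early T cell receptor and ERK response genes (open circles), and Slc6a12 lies lower on y, at -1.86.

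IL-12 2 h and untreated 2 h differ in the cytokine at a matched time. The untreated arrays are those on which the genes were chosen, so these differences are given without a test. IL-12 2 h minus untreated was -0.08 ± 0.15 for Muc1, 0.23 ± 0.15 for Emp1, 0.25 ± 0.09 for Mpzl2 and -0.45 ± 0.23 for Slc6a12 (log2 ± SE, run in the model). Without the run term it was -0.60, -0.26, -0.37 and -1.56 in the same order. The signs for Emp1 and Mpzl2 thus rest on the placing of the untreated arrays. Within arrays numbered 5 to 8, 2 against 2, IL-12 2 h minus untreated was 0.05 for Muc1, 0.07 for Emp1, 0.24 for Mpzl2 and -0.17 for Slc6a12. In these arrays Mpzl2 had both IL-12 values (9.56 and 9.65) above both untreated values (9.43 and 9.29), and so had Emp1, by a narrower gap. Slc6a12 had both IL-12 values below, and for Muc1 the groups overlapped. IL-12 8 h minus untreated 2 h was -1.44 ± 0.15 for Muc1, -1.09 ± 0.15 for Emp1, -1.44 ± 0.09 for Mpzl2 and -0.98 ± 0.23 for Slc6a12. The untreated arrays end at 2 h, so IL-12 and later time cannot be told apart in that last comparison.

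The name epithelial was checked against cells of that kind. All 10 measured CD4 T cell markers, among them Cd3e, Cd4 and Cd28, lay above the array median on all 12 arrays. Of 19 measured epithelial markers, 14 lay below the array median on all 12 arrays, including Cdh1 (E-cadherin), the keratin genes Krt18 and Krt19 and the epithelial factor genes Grhl2, Ehf and Esrp1. The mean of the 19 was 6.38 to 6.47 at 8 h of IL-12, 6.45 to 6.52 at 2 h of IL-12, 6.48 to 6.55 in untreated arrays and 6.41 at baseline. Between 8 h and 2 h, 0 of them rose and 1 fell, where 6.27% and 6.36% of all genes did. It was the tight junction gene Ocln (-0.29 ± 0.07, limma adjusted p = 0.0152). The median of the 19 was -0.08 against -0.01 over all genes. The exceptions included Cldn3, above the array median on all 12 arrays, and Krt8, above it on 10. By run 0 of the 19 were higher and 3 lower in arrays 2 to 4, where 11.8% and 12.5% of all genes were. The 3 were Epcam, Cdh1 (-0.16) and Dsp (-0.19). Epcam, an adhesion gene of epithelia, varied most of these 3. It had 6.84, 7.18, 7.82 and 7.77 at 8 h of IL-12, 7.36, 7.24, 7.35, 7.58 and 7.75 at 2 h of IL-12, 7.46 and 7.55 untreated and 6.69 at baseline. It was lower in the run 2 to 4 (-0.55 ± 0.09, limma adjusted p = 0.000796) and was not called between 8 h and 2 h (-0.11 ± 0.09, limma adjusted p = 0.549). The 4 genes are thus epithelial by their names and background, while 14 of the 19 markers of epithelial cells stayed below the array median on every array.

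Relatives of the 4 genes mostly did not follow them. Of 13 measured mucin genes 2 fell between 2 h and 8 h and 0 rose (6.36% and 6.27% of all genes): Muc1 and the secreted gut mucin gene Muc2, by -0.24 ± 0.06 (limma adjusted p = 0.0227). Muc2 and 10 others of the 13 were below the array median on all arrays. Muc13, a transmembrane mucin gene, gave 7.10 to 7.60 at 8 h, 7.14 to 7.69 at 2 h of IL-12, 7.39 and 7.34 untreated and 8.36 at baseline, the opposite order to Muc1 at baseline. In the run comparison Muc1 was the only mucin gene called lower (12.5% of all genes were), and Muc5b was called higher (0.18 ± 0.06, limma adjusted p = 0.0482).

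Among 8 relatives of peripheral myelin protein 22, Emp1 alone was called between 8 h and 2 h (6.36% of all genes fell). By run 3 of the 8 were lower in arrays 2 to 4 and 0 higher, against 12.5% and 11.8% of all genes. They were Emp1, Perp and Lhfp (-0.43 ± 0.06, limma adjusted p = 0.000267). For 8 h minus 2 h the other values were as follows. Emp2 had 0.01 ± 0.08, Emp3 0.23 ± 0.07 (limma adjusted p = 0.055) and Pmp22 -0.20 ± 0.08 (limma adjusted p = 0.123). Perp, a p53 target gene with a role in epithelial desmosomes, had 7.13, 7.11, 7.97 and 7.97 at 8 h of IL-12 and 7.15, 7.15, 7.08, 7.98 and 7.91 at 2 h. Its untreated values were 7.79 and 7.81 and its baseline value 6.54, so Perp followed the run (-0.83 ± 0.05, limma adjusted p = 3.39e-07) and not the time (0.01 ± 0.05, limma adjusted p = 0.958).

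The myelin protein zero family behaved otherwise, with 3 of 3 measured members called lower at 8 h and in the run 2 to 4. Of all genes 2.7% were called lower in both, and 1 of the 3 is the chosen gene Mpzl2. Mpzl3, an adhesion gene known from skin, had 7.62, 7.85, 8.35 and 8.25 at 8 h of IL-12 and 8.57, 8.46, 8.50, 8.91 and 8.73 at 2 h. It had 8.79 and 8.71 untreated and 7.77 at baseline, the order of Mpzl2 at a smaller span (8 h minus 2 h -0.66 ± 0.07, limma adjusted p = 5.39e-05). Mpzl1, a receptor that binds the phosphatase SHP-2, fell by -0.34 ± 0.08 (limma adjusted p = 0.00927).

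Of 19 measured SLC6 transporter genes, Slc6a12 was the only one called between 8 h and 2 h, a call that most other settings lost. Of all genes 6.36% fell and 6.27% rose. Of the 19, 16 were below the array median on all arrays. By run 2 were lower in arrays 2 to 4, Slc6a12 and Slc6a9 (-1.42, limma adjusted p = 0.00247), against 12.5% of all genes. Only Slc6a17 was higher (0.23, limma adjusted p = 0.0218), against 11.8% of all genes. The taurine transporter gene Slc6a6, another osmolyte carrier, had -0.09 ± 0.06 (limma adjusted p = 0.453) and a total span from 10.52 to 10.92. Slc6a9, the glycine transporter GlyT1, was the other SLC6 gene with a called interaction. It had 7.99, 8.01, 10.42 and 10.65 at 8 h of IL-12 and 9.26, 9.37, 9.25, 9.92 and 9.65 at 2 h. In arrays 5 and 6 it was thus higher at 8 h than at 2 h and in arrays 2 to 4 lower (interaction 2.04, limma adjusted p = 5.94e-05), the reverse of the sign for Slc6a12.

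**Figure D4:**
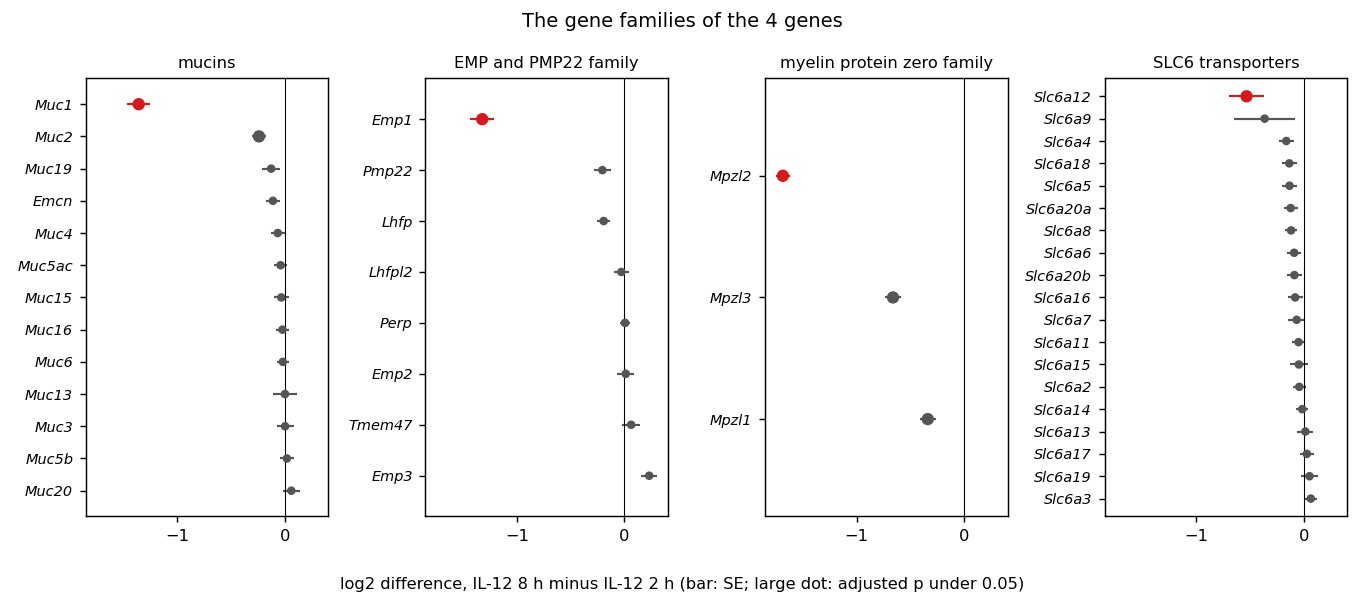
Log2 difference IL-12 8 h minus IL-12 2 h with SE for the measured members of the gene families of Muc1, Emp1, Mpzl2 and Slc6a12 (red). Large dots passed an adjusted p under 0.05. Among these 4 families only that of myelin protein zero had every measured member pass, at -0.34 for Mpzl1, -0.66 for Mpzl3 and -1.69 for the chosen gene Mpzl2.

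Mucin proteins depend on enzymes that attach and extend O-linked sugars, and of 22 such genes 4 fell, 0 rose and 18 were not called between 2 h and 8 h (median -0.06; 6.36% of all genes fell). The branching enzyme genes Gcnt4 and Gcnt1 fell by -0.55 ± 0.10 (limma adjusted p = 0.0017) and -0.30 ± 0.06 (limma adjusted p = 0.00575), both below the array median on all arrays. The sialyltransferase genes St3gal1 and St6galnac4 fell by -0.35 ± 0.08 (limma adjusted p = 0.0081) and -0.32 ± 0.09 (limma adjusted p = 0.028).

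Slc6a12 belongs to the response to hypertonic medium, and of 11 measured genes of that response 5 fell, 0 rose and 6 were not called (median -0.18; 6.36% of all genes fell). Besides Slc6a12 they were Nfat5, the tonicity factor gene (-0.55 ± 0.07, limma adjusted p = 0.000156), the chaperone gene Hspa4l (-0.60 ± 0.10, limma adjusted p = 0.00171), the kinase gene Sgk1 (-0.31 ± 0.07, limma adjusted p = 0.00609) and the amino acid transporter gene Slc38a2 (-0.19 ± 0.06, limma adjusted p = 0.0424). By run, 5 of the 11 were lower and 1 was higher in arrays 2 to 4, against 12.5% and 11.8% of all genes. Hspa4l had 8.50, 8.69, 9.16 and 9.04 at 8 h of IL-12, 8.97, 8.999, 8.84, 9.87 and 10.14 at 2 h, 9.99 and 10.14 untreated and 8.63 at baseline. Slc5a3, the transporter of the osmolyte inositol, was lower in the run 2 to 4 (-0.71 ± 0.08, limma adjusted p = 3.63e-05) but was not called with time (-0.18 ± 0.08, limma adjusted p = 0.204). Of 11 genes of choline and betaine metabolism 1 rose and 1 fell with time: the choline transporter-like gene Slc44a2 (0.17 ± 0.05, limma adjusted p = 0.0412) and Slc6a12 itself.

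Early response genes of the T cell receptor and ERK pathways moved the way of Muc1, Emp1 and Mpzl2. Of 28 measured 26 fell, 0 rose and 2 were not called between 2 h and 8 h (median -0.97), and in the run 2 to 4 there were 19 lower and 1 higher. Of all genes 6.36% fell with time and 12.5% were lower by run. The list was known from earlier results of these data to fall, so its count is no independent evidence. Nr4a3 and Nr4a1 fell by -2.58 ± 0.11 and -1.98 ± 0.10 (limma adjusted p = 1.22e-08 and 5.68e-08). The NF-kappaB regulator gene Nfkbid fell by -1.59 ± 0.08 (limma adjusted p = 3.38e-08) and Egr1 by -0.98 ± 0.06 (limma adjusted p = 1.85e-07).

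Likeness of pattern was measured as Pearson r of log2 intensity over the 12 arrays, among 1023 named genes that spanned at least 1 log2 unit (1020 for the mean profile). These arrays share the runs and times described above, so r is high for any gene that differs with both. Muc1, Emp1 and Mpzl2 correlated with one another at 0.946 to 0.953, and at 0.901 to 0.974 over the 9 IL-12 arrays, which the choice of genes did not use. Slc6a12 correlated with them at 0.664 to 0.757 over 12 arrays and 0.578 to 0.696 over the 9. The 12 arrays include those on which the genes were chosen, which can raise r for genes with the same contrast, so r over the 9 IL-12 arrays stands second below. Most like Muc1 were Pdcd1, the inhibitory receptor PD-1 (r = 0.986 and 0.980), Stx11 (0.964 and 0.950) and Zc3h12a, an RNA-degrading regulator (0.961 and 0.938). Most like Emp1 were Stx11 (0.978 and 0.985), Dcun1d3 (0.965 and 0.928) and Plagl1 (0.965 and 0.936). Mpzl2 was matched most closely by the ubiquitin ligase gene Rnf149 (0.990 and 0.988), Il1rl2 (0.988 and 0.986) and the activation marker Cd69 (0.986 and 0.981). Slc6a12 had other neighbours, Galm (0.976 and 0.975), Trp53inp2 (0.974 and 0.970) and Pdlim5 (0.974 and 0.959). Of these, Galm and Trp53inp2 were not called between 8 h and 2 h (limma adjusted p = 0.157 and 0.257), while all 3 were lower in the run 2 to 4, by -0.90, -0.79 and -0.90.

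For the mean profile of the 4 genes the closest were Lrig1 (r = 0.988), an inhibitor of growth factor receptors, Ldlrad4 (0.983), an inhibitor of TGF-beta signalling, and Rgs2 (0.981), a regulator of G protein signalling. They were followed by Havcr2, the receptor TIM-3 (0.981), Pdgfb (0.979), Glce (0.978), Rgs16 (0.978), Susd6 (0.977), Tmem65 (0.976) and Slc26a2 (0.973). All 10 were called lower at 8 h than at 2 h and lower in the run 2 to 4, as were 2.7% of all genes. They were picked for likeness to a profile that is lower in both, so this count is no independent evidence. Lrig1 fell by -0.87 ± 0.06 with time (limma adjusted p = 1.05e-06), Ldlrad4 by -1.09 ± 0.07 (limma adjusted p = 3.72e-07) and Rgs2 by -1.15 ± 0.10 (limma adjusted p = 4.3e-06). Over the 9 IL-12 arrays alone, r of these 10 genes with the mean profile lay between 0.952 and 0.985.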

How the data were processed

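Values were taken from the deposited series table, whose 24922 probe sets carry linear intensity values on 12 arrays. Per the submitters' processing notes, the authors used RMA and Affymetrix Power Tools. RMA corrects background, equalises the arrays' distributions and summarises probe sets. Tool versions and the genome build: not given in the sources used here. Array medians lay between 160.6 and 167.3, and precision is limited by how many arrays there are. The 12 columns matched 1 sample each.

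No further normalization followed the log2 transform. Platform annotation from GEO gave 1 symbol for 21425 probe sets, several for 1399 and none for 2098; the brightest probe set stood for a gene, which left 19752 genes, with no filter on dim ones. All arrays entered 1 limma 3.58.1 fit (R 4.3.3) with 4 group means plus the title-number run as a covariate, tested two-sided with Benjamini-Hochberg adjustment over all genes at 0.05. The run-by-time interaction used the 9 IL-12 arrays. The fit was first tested on simulated data. Plots were drawn with matplotlib 3.10.9.

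The members, lists and named-gene rule were chosen with earlier results of these data known. Named were the 4 genes and the members of their families. Up to 4 genes of each other pathway list with the smallest p for 8 h against 2 h were named too, as were the closest genes by r (3 per gene, 10 for the mean) and the 10 largest untreated-minus-baseline differences. Single markers, Clec4e, Lyz2, Slc5a3 and further members of lists were named after their values were seen.

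Both IL-12 groups share the title numbers 2, 3, 5 and 6. Deviations from the group means of same-numbered arrays correlated at 0.30 to 0.52, and those of other arrays of the same run at 0.41 to 0.50. After the run was removed, same-numbered arrays gave -0.26 to 0.03. Where a group and run hold only 2 arrays, their deviations mirror each other, so these values can hardly show a pairing. Beyond the run the numbers were treated as names, and a pairing by number is not excluded.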

Additional observations from a re-analysis of the deposited data

Results flagged for a closer look

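The change of Slc6a12 between 2 h and 8 h of IL-12 differed between the runs of title numbers. It was -1.09 ± 0.14 (log2 ± SE) in arrays numbered 5 and 6 and -0.07 ± 0.13 in arrays numbered 2 to 4, an interaction of -1.03 (limma adjusted p = 0.0151). In the run 2 to 4 all 5 arrays lay between 6.40 and 6.81, with the baseline array at 6.59 and array medians of all probe sets at 7.33 to 7.39. Whether a further fall from such low values could have been measured was not tested, so the interaction does not show that the cells responded differently. No array of the 4 genes was marked as an outlier of its IL-12 group. The groups hold only 4 or 5 arrays and split by run, so this does not show that no array was unusual. What the title numbers stand for is not given in the labels, and the cause was not tested.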

How the results depend on the processing

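The falls of Muc1, Emp1 and Mpzl2 between IL-12 2 h and 8 h kept their direction and their call in every setting tried, with Muc1 at -1.43 to -1.25, Emp1 at -1.47 to -1.23 and Mpzl2 at -1.72 to -1.65 when 1 IL-12 array at a time was left out. That of Slc6a12 missed the threshold without the run term (-0.35), in numbers 2 to 4 only (-0.065), in IL-12 arrays only (-0.53), after quantile normalization (-0.50), with log2(value + 50) (-0.46), with the mean of all probe sets (-0.53), with the macrophage mean as a covariate (-0.58), with trend and robust eBayes (-0.53) and with the replicate block (-0.56). It ranged from -0.71 to -0.38 with 1 array left out. Genes called for 8 h against 2 h were 2496, and 871 without the run term, 363 in numbers 5 to 8 only, 1246 with the replicate block, and 1525 (without IL-12 8 h array 3) to 2339 with 1 array left out. The replicate block changed no call of the other genes of the 4.

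For the run, 4795 genes were called, with 1666 in IL-12 8 h arrays only and 40 with the macrophage mean as a covariate. With that covariate Muc1, Emp1, Mpzl2 and Slc6a12 had -1.16, -0.52, -0.79 and -2.18 and were not called. The macrophage mean and the run cannot be told apart on the IL-12 arrays. Interaction calls numbered 387, and 136 to 561 with 1 array left out, a check added after seeing the data. The interaction was then -1.19 to -0.87 for Slc6a12, 0.34 to 0.81 for Emp1, -0.67 to -0.30 for Muc1 and -0.055 to 0.11 for Mpzl2, whose sign turned.

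Without the run term, IL-12 2 h minus untreated was -0.60 for Muc1, -0.26 for Emp1, -0.37 for Mpzl2 and -1.56 for Slc6a12, which turns the sign of Emp1 and Mpzl2. IL-12 8 h minus untreated was then -1.87, -1.502, -1.96 and -1.91. With the baseline array in the run 2 to 4, untreated minus baseline was 2.66, 2.29, 1.501 and 0.69. The cause was not tested.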
